A study of Drosophila melanogaster with 9 samples.

Results

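A set of 10 genes that act on fatty acids from uptake to oxidation were followed in the heart of Drosophila melanogaster females fed a normal or a rich diet. They are Snmp1 for uptake, hll, bgm and Acsl for activation, fabp for binding, whd and CPT2 for entry into mitochondria, and Mcad, scu and yip2 for beta-oxidation. These 10 genes were chosen by name and function from the 16700 rows of the expression table, and each was found under its own symbol in 1 row. Earlier results of these data were known at that choice, so counts of the 10 genes beside all genes are a description only. RNA was sequenced from dissected hearts of adult w1118 females, and each diet has 3 libraries (A, B and C) made from 15 hearts apiece by the sample labels. All females were mated for 2 days before the males were taken away. The normal diet (ND), of agar, yeast and cornmeal, was given for 10 days. The high sugar diet (HSD) was ND with 30% sucrose and was given for 10 days. The high fat diet (HFD) held 30% coconut oil, followed 7 days of ND and lasted 3 days by the sample labels, while the design text of the series gives 10 days for every diet. The rich diets thus differ in length as well as content, and in HSD against HFD these cannot be told apart.

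Fatty acids reach the cytoplasm with the help of membrane receptors and binding proteins, and acyl-CoA synthetases activate them by joining them to coenzyme A. The carnitine shuttle then moves long-chain acyl groups into mitochondria, where beta-oxidation shortens them in a repeated cycle of dehydrogenation, hydration, oxidation and thiolysis. Heart muscle is known as a tissue that draws much of its energy from this route.

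Values are RPKM, reads per kilobase of gene relative to the reads counted on genes, divided by a scaling factor per library, and are called scaled RPKM. Rebuilt read totals on genes lay between 59941762 (HFD library A) and 90069217 (HSD library A), and each mate of a pair counts as a read. Markers of heart muscle were present at similar summed levels, 656 to 790.2 scaled RPKM over 6 genes on ND, 606 to 826 on HSD, 578 to 854 on HFD. Most of this sum is Hand, Mhc and wupA, at means of 250, 253 and 204 on ND, beside 3.11 for tin, 14.0 for H15 and 2.24 for mid. The paper calls the Hand driver pan-cardiac, so the sum is not a measure of heart muscle alone. Markers of other cell types were present too. The 5 oenocyte markers, of which the cytochrome P450 gene Cyp4g1 makes up most, summed to between 35624 and 50427 on ND, 52093 and 63435 on HSD, and 44833 and 55872 on HFD. Fat body markers, 5 in all, summed to between 1159 and 1756 on ND, 766 and 938 on HSD, and 452 and 658 on HFD, and Fbp1 among them was at 0 in part of the HFD libraries. The 4 matched ovary and eggshell markers summed to 690 in ND library C and to 24.6 and 104 in ND libraries A and B, against at most 18.1 on HSD and 12.6 on HFD. The 6 hemocyte markers summed to 572 to 636 on ND, 417 to 584.9 on HSD and 463 to 561 on HFD. For the 4 nephrocyte markers these ranges were 278 to 378, 174 to 294 and 246 to 341. Over all libraries, 3 flight muscle markers reached at most 0.547 scaled RPKM and 4 midgut markers reached at most 10.5. In bulk hearts, fewer cells of a type and less RNA per cell cannot be told apart.

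On ND the 10 genes covered a wide range of levels. Mcad, Acsl and yip2 stood highest, at 290.3, 246 and 236 scaled RPKM on average, and their libraries overlapped from neighbour to neighbour. Then came scu at 182, fabp at 112, whd at 107, bgm at 78.4, CPT2 at 38.8 and Snmp1 at 32.4. The libraries of fabp and whd overlapped, as did those of CPT2 and Snmp1 and those of yip2 and scu. The activating gene hll was far below the others at 0.997 scaled RPKM, place 7720 of 8365 genes tested. On HSD hll fell to place 8350, and on HFD it stood at place 2806, above Snmp1, which moved from place 1724 on ND to 4633 on HFD. Only genes averaging 0.5 RPKM or more over the 9 libraries are ranked. At 0.0957 scaled RPKM on HSD, hll is thus in the ranking through its level on the other diets. The libraries of hll and Snmp1 did not overlap on any of the 3 diets.

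**Figure D1:**
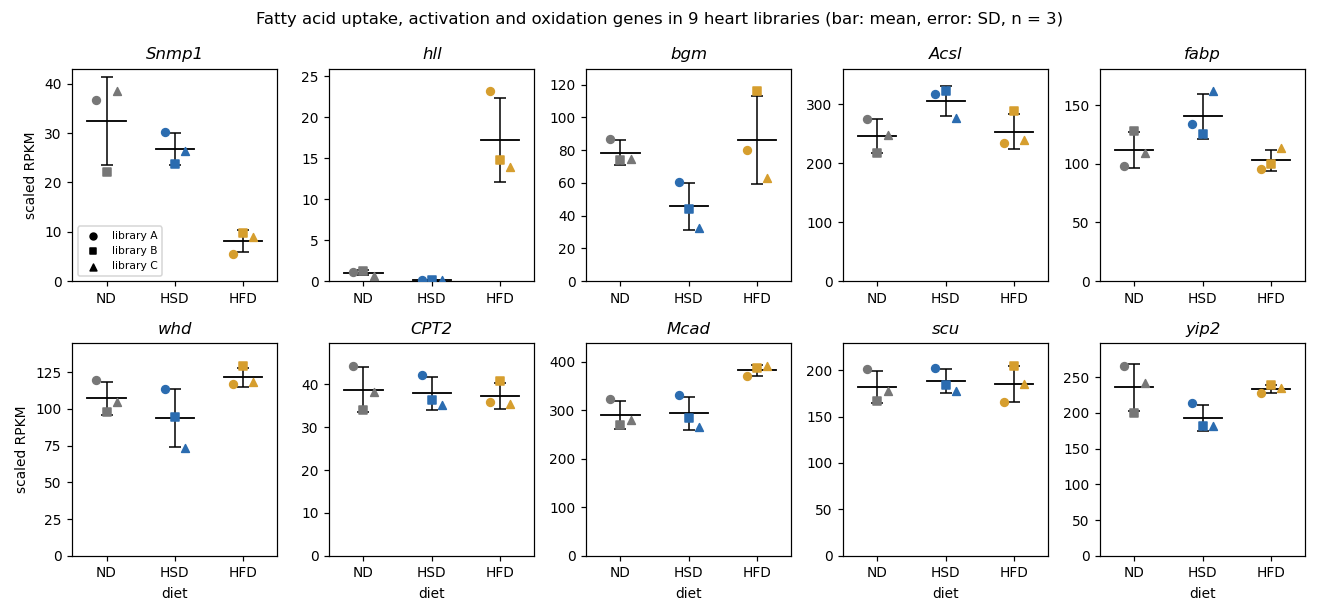
Scaled RPKM (vertical axis) of each of the 10 genes in the 9 heart libraries by diet (horizontal axis), with points for libraries A, B and C, a bar for the mean and error bars for the SD (n = 3). On HFD, hll sits between 13.9 and 23.2 and Snmp1 between 5.53 and 9.65, both clear of the ND libraries, whereas CPT2 and scu overlap on all diets.

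Most of the 10 genes did not pass the test in any comparison, and the changes that did were in hll and Snmp1. Each diet pair was compared with limma on log2(scaled RPKM + 0.5), and calling a gene took an adjusted p (Benjamini-Hochberg, over the 8365 genes tested) under 0.05 together with a fold of at least 1.5. HSD against ND called 1 of the 10 genes, hll, which was lower, where 3.3% of all genes tested were called, 2.56% as lower and 0.741% as higher. HFD against ND called 2, hll higher and Snmp1 lower, against 1.91% of all genes, 0.466% as higher and 1.45% as lower. HSD against HFD called 2, hll lower and Snmp1 higher, against 4.35% of all genes, 2.61% as lower and 1.75% as higher. The HSD and HFD comparisons with ND share the same 3 ND libraries. The median log2 fold change (log2FC) of the 10 genes was -0.12, 0.03 and -0.13 in these 3 comparisons, beside 0.0, 0.02 and -0.01 over all genes tested. The libraries of the diets compared did not overlap for 3 of the 10 genes in HSD against ND, 3 in HFD against ND and 7 in HSD against HFD, where 29.2%, 23.3% and 29.9% of all genes did so. A two-sided exact permutation test of a single gene cannot go below p = 0.1 with 3 libraries against 3, which every gene with no overlap reached.

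**Figure D2:**
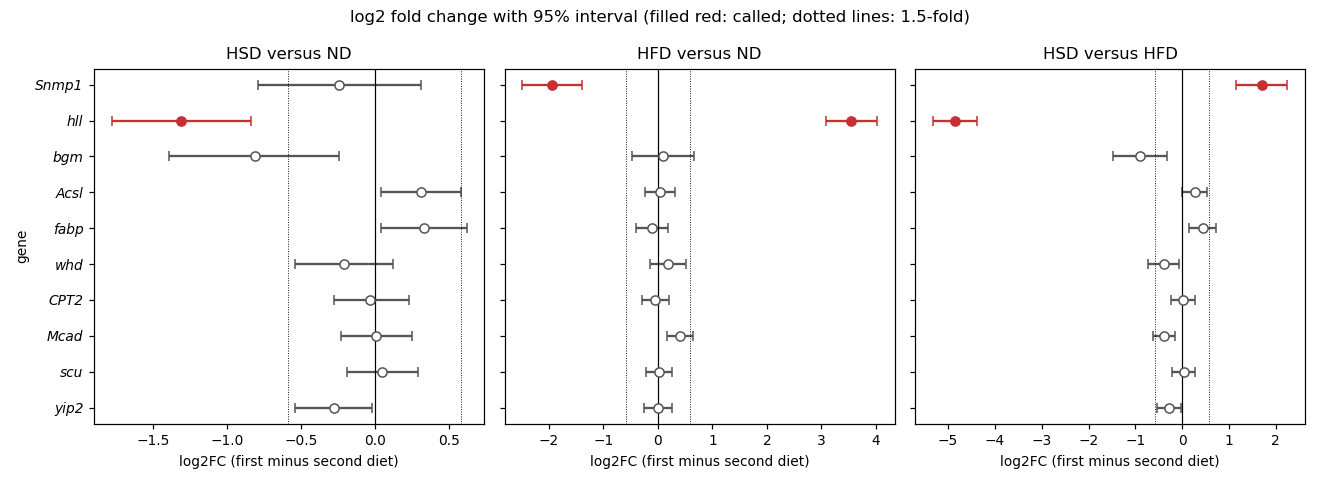
log2FC on the log2(scaled RPKM + 0.5) scale (horizontal axes, which differ between panels) of the 10 genes in the 3 diet comparisons, with the 95% interval from limma as error bars, filled red where the gene was called and dotted lines at a fold of 1.5. The intervals of hll lie on opposite sides of 0 for HSD and HFD against ND, at -1.78 to -0.84 and 3.09 to 4.02.

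Snmp1 lost most of its level on HFD. It encodes a membrane protein of the CD36 family of lipid receptors that is best known from pheromone-sensing neurons, and lies at chr3R:21165167-21168205 on the minus strand in BDGP6. The ND libraries A, B and C held 36.6, 22.2 and 38.4 scaled RPKM, the HSD libraries 30.2, 23.8 and 26.4, and the HFD libraries 5.53, 9.65 and 9.01. Every HFD library was below every ND and HSD library, and ND and HSD overlapped. The mean on HFD, 8.06 ± 2.22 (SD, n = 3), was 4.02-fold lower than the 32.4 ± 8.91 on ND, a log2FC of -1.94 (SE 0.24, 95% interval -2.49 to -1.39, limma with Benjamini-Hochberg adjusted p = 0.0059). HSD was 3.32-fold higher than HFD, with a log2FC of 1.70 and an adjusted p of 0.0042 in limma. HSD against ND gave a log2FC of -0.24 with an interval from -0.79 to 0.31, which did not pass (limma adjusted p = 0.67). Both calls on HFD held in 9 of 9 fits with a library left out, although fits without a library of the diet not compared keep all 6 libraries compared. The summed fat body markers of the HFD libraries also lay below those of all ND libraries. Lsp2, a larval serum protein gene, was at a mean of 10.7 against 540.2 scaled RPKM, and apolpp, the lipoprotein precursor, at 497 against 780. Lsp1b, at 2.59 against 16.0, was also lower with no overlap. AkhR, the receptor of adipokinetic hormone, was at 31.9 and 36.1, and Fbp1 at 0.114 and 0.164, both with overlapping libraries. The hemocyte and ovary sums of the HFD libraries were likewise below those of all ND libraries. NimC1, Pxn and eater of the hemocyte list were lower with no overlap, while Hml, He and srp overlapped ND, srp at 39.7 against 37.5. Of the ovary list, Cp15, Cp36 and Vm26Aa were lower with no overlap, and osk overlapped at a mean of 3.59 against 1.63. Of the 5 oenocyte markers, FarO, a fatty acyl-CoA reductase gene, fell on HFD by 0.74 on the log2 scale (limma adjusted p = 0.019). The other 4 were not called, with log2FC of -0.94 for FASN3, -0.29 for eloF, -0.19 for Desat2 and 0.31 for Cyp4g1. The oenocyte sum, most of which is Cyp4g1, overlapped that on ND. The part of these cell types in the Snmp1 result was not tested.

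The largest changes among the 10 genes were those of hll, in opposite directions on the 2 rich diets. It encodes an acyl-CoA synthetase of the bubblegum type, named heimdall, and lies at chr2L:14027001-14029368 on the plus strand. On ND the libraries held 1.14, 1.199 and 0.651 scaled RPKM, from 183, 203 and 108 rebuilt reads. On HSD they held 0.0770, 0.0952 and 0.115, from 15, 16 and 18 reads. On HFD they held 23.2, 14.7 and 13.9, from 3230, 2080 and 2393 reads. All 3 HSD libraries were below all ND libraries, and all HFD libraries were above them. The HFD mean of 17.3 ± 5.12 (SD, n = 3) was 17.3-fold higher than the ND mean of 0.997 ± 0.301, a log2FC of 3.55 (SE 0.21, 95% interval 3.09 to 4.02, limma adjusted p = 0.00015). Of the 8365 genes tested, 1 had a higher log2FC on HFD against ND.

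On HSD the mean of hll, 0.0957 ± 0.0190 scaled RPKM (SD, n = 3), was 10.4-fold lower than on ND, and the log2FC was -1.31 (SE 0.21, 95% interval -1.78 to -0.84, limma adjusted p = 0.01). Between the rich diets the means differed by 180.4-fold, and the log2FC of HSD against HFD, -4.86 (limma adjusted p = 9.9e-06), was the lowest of all 8365 genes tested. The ratio of means on HSD is larger than its log2FC because the added 0.5 exceeds the level on HSD. With 0.1 added in its place the log2FC was -2.45, with 1 added it was -0.85, and limma-voom on the rebuilt reads gave -3.33. All of these were called, as were the 9 fits with a library left out, and over the 20 alternatives the adjusted p in HSD against ND ran from 0.0019 to 0.049. Over the last 107 exon bases of hll, 4.9% of its exons, the gene CG18095 runs on the other strand, and it held at most 12 reads in any library. On HSD, where hll was lower, the fat body and ovary sums of all libraries were below those of all ND libraries. The oenocyte sum was above them, with Cyp4g1, eloF and Desat2 higher with no overlap, while FASN3 and FarO overlapped ND. The hemocyte and nephrocyte sums overlapped those on ND. Within them srp, Pxn, eater, Klf15 and Amnionless were lower with no overlap, Amnionless at a mean of 111 against 187 scaled RPKM. None of these lower genes was called, and Hml, NimC1, He, Cubn and sns overlapped ND. The fat body sum fell through Lsp2, at a mean of 51.2 against 540.2 scaled RPKM, and Fbp1 was lower at 0.0645 against 0.164. Means of apolpp (755 against 780), AkhR (43.3 against 36.1) and Lsp1b (28.4 against 16.0) came from libraries that overlapped ND. Among the ovary markers, Cp15 alone had no overlap. On HFD, where hll was higher, the fat body, hemocyte and ovary sums were below those of all ND libraries and the oenocyte and nephrocyte sums overlapped. Within the lower sums, AkhR, Fbp1, Hml, He, srp and osk overlapped ND. The part of these cell types in the hll result was not tested.

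The bubblegum gene bgm, which activates very long-chain fatty acids, lies at chr2L:14013004-14019328, and 7673 bases separate its end from the start of hll. Its libraries held 87.0, 74.0 and 74.4 scaled RPKM on ND, 60.7, 44.3 and 32.3 on HSD, and 79.9, 116 and 62.9 on HFD. All HSD libraries were below all libraries of the other diets, and HFD overlapped ND. The test was not passed. HSD against ND gave a log2FC of -0.81 (95% interval -1.39 to -0.24, limma adjusted p = 0.099), and HSD against HFD gave -0.91 (-1.48 to -0.33, limma adjusted p = 0.058). These values lie close to the threshold. Without HSD library A, the log2FC of HSD against ND was -1.04 and was called, and HSD against HFD was called without HSD library A (-1.13) or HFD library C (-1.11), as well as with the RPKM as deposited (-0.98) or quantile normalized. HFD against ND gave 0.09 with an interval from -0.48 to 0.67.

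Acsl, the long-chain acyl-CoA synthetase gene at chr2R:8665813-8683022, was the most abundant of the 3 activating genes. Its libraries held 275, 217 and 248 scaled RPKM on ND, 318, 322 and 276 on HSD, and 233, 288 and 239 on HFD. HSD lay above ND in all libraries, if narrowly, and the log2FC of 0.31 (95% interval 0.04 to 0.58) did not pass (limma adjusted p = 0.17). HFD overlapped ND with a log2FC of 0.04 (-0.23 to 0.31). Within the summed level of the 3 genes, which ran from 292 to 418 scaled RPKM over the 9 libraries, Acsl held 74.2 to 76.8% on ND, 83.9 to 89.5% on HSD and 68.8 to 75.7% on HFD. The share of bgm was 23.0 to 25.4% on ND, 10.5 to 16.0% on HSD and 19.9 to 27.7% on HFD. The share of hll was 0.202 to 0.411% on ND, 0.0203 to 0.0372% on HSD and 3.52 to 6.88% on HFD. The level of bgm was thus 61.7 to 114 times that of hll on ND, 281 to 788 times on HSD and 3.45 to 7.86 times on HFD.

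**Figure D3:**
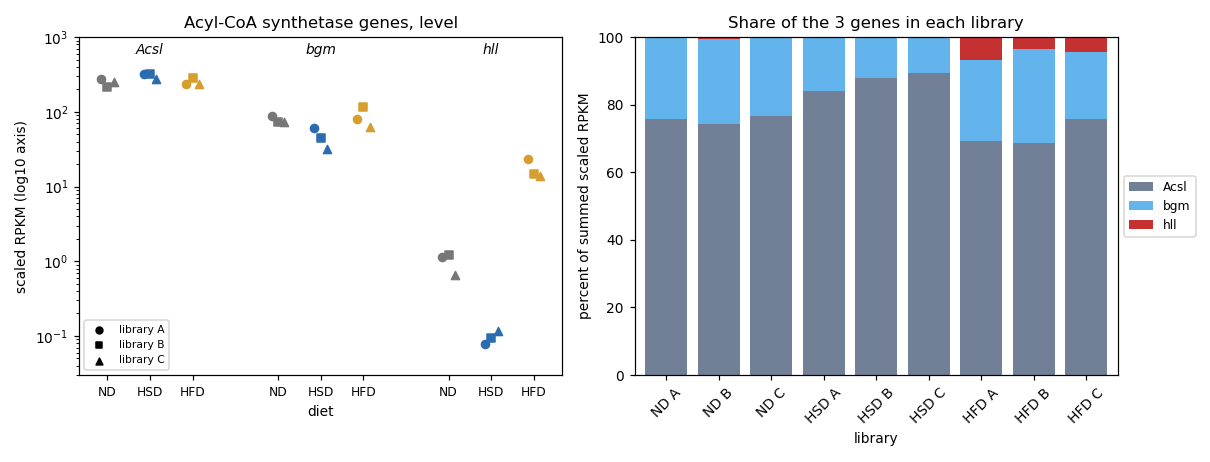
Scaled RPKM of Acsl, bgm and hll in each library by diet on a log10 axis (left), and the percent that each gene makes up of their summed scaled RPKM in each library (right, stacked bars). hll is near 0.1 on HSD and above 13.9 on HFD in the 3 libraries of each diet, where it makes up 3.52 to 6.88% of the sum.

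The binding protein gene fabp, whose product carries fatty acids through the cytoplasm, lies at chr3R:11559896-11567054. Its libraries held 98.4, 128 and 109 scaled RPKM on ND, 134, 125 and 162 on HSD, and 95.7, 100.1 and 113 on HFD. HSD was above HFD in all libraries, while ND overlapped both. None of the comparisons passed, with log2FC of 0.33 for HSD against ND (95% interval 0.04 to 0.62, limma adjusted p = 0.18), -0.11 for HFD against ND (-0.40 to 0.18) and 0.44 for HSD against HFD (0.15 to 0.73, limma adjusted p = 0.064). In BDGP6, 72.1% of the exon bases of fabp are shared with the gene sea on the same strand, so that reads of the 2 genes may be split between them. The row of sea held 5.00 to 6.88 scaled RPKM.

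Neither carnitine shuttle gene passed the test in any comparison. whd, or withered, encodes the carnitine palmitoyltransferase of the outer mitochondrial membrane, the entry step of the shuttle, and lies at chr2R:10469473-10478567. Its libraries held 119.6, 97.6 and 105 scaled RPKM on ND, 113, 94.5 and 73.7 on HSD, and 117, 129 and 118 on HFD. Only HSD and HFD did not overlap, at a log2FC of -0.39 (95% interval -0.72 to -0.06) that did not pass (limma adjusted p = 0.14). HSD against ND gave -0.21 (-0.54 to 0.12) and HFD against ND 0.18 (-0.15 to 0.51). CPT2, the gene of the inner membrane transferase at chr3L:2981022-2983551, held 44.3, 34.0 and 38.1 on ND, 42.3, 36.5 and 35.1 on HSD, and 35.8, 40.8 and 35.4 on HFD. All 3 diets overlapped for CPT2, and its log2FC were -0.03 (-0.28 to 0.23), -0.05 (-0.30 to 0.20) and 0.02 (-0.23 to 0.27). These intervals leave out a fold of 1.5 in either direction for CPT2.

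Of the mitochondrial oxidation genes, Mcad stood higher on HFD than on the other diets. It encodes the medium-chain acyl-CoA dehydrogenase of the first oxidation step and lies at chr3L:7719350-7721472. Its libraries held 322, 268 and 280.1 scaled RPKM on ND, 331, 284 and 264 on HSD, and 369, 386 and 391 on HFD. All HFD libraries were above all others. The mean of 382 ± 11.4 (SD, n = 3) was 1.32 times that on ND, with a log2FC of 0.40 (95% interval 0.16 to 0.64) that did not pass (limma adjusted p = 0.085). HSD against HFD gave -0.39 (-0.63 to -0.15, limma adjusted p = 0.055), and HSD against ND gave 0.01 (-0.23 to 0.25). On the other strand CG7457 shares 92.6% of the exon bases of Mcad, and its row held 2.13 to 2.94 scaled RPKM. The library kit keeps strand, and the strand setting of the counting is not given in the sources used here.

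The libraries of scu, which encodes a hydroxyacyl-CoA dehydrogenase of mitochondria and lies at chrX:18091259-18092853, held 201, 167 and 178 scaled RPKM on ND, 203, 184 and 178 on HSD, and 166, 205 and 185 on HFD. All diets overlapped, with log2FC of 0.05 (95% interval -0.19 to 0.29), 0.02 (-0.22 to 0.26) and 0.03 (-0.21 to 0.27). The thiolase gene yip2, whose product ends a round of beta-oxidation, lies at chr2L:9915253-9917220 and held 266, 199.7 and 242 on ND, 214, 182 and 182 on HSD, and 228, 239 and 235 on HFD. HSD was below HFD in all libraries and overlapped ND. The log2FC of yip2 was -0.28 in HSD against ND (-0.54 to -0.02, limma adjusted p = 0.19) and -0.28 in HSD against HFD (-0.54 to -0.02, limma adjusted p = 0.16), and it did not pass. On HFD against ND the log2FC of yip2 had an interval from -0.26 to 0.26.

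Beyond these 10, a list of 58 further genes of the same route was counted, all of which were matched, 44 passing the filter of a mean of at least 0.5 RPKM. In HSD against ND, 1 of the 44 was called, beside 3.3% of all genes. This gene, CG3902, stands in the mitochondrial group of the list. It held 120.2, 87.7 and 105 scaled RPKM on ND, 49.5, 43.3 and 50.5 on HSD, and 137, 112 and 94.3 on HFD. Its HSD libraries lay below all the others, 2.18-fold lower than ND on average, with a log2FC of -1.11 (SE 0.15, limma adjusted p = 0.0055). In HFD against ND, limma and limma-voom called 0 of the 44 genes, beside 1.91% of all genes. An unadjusted p under 0.05 in limma was found for 14 of the 44, 4 of them higher and 10 lower, and for 18.4% of all genes, 8.3% as higher and 10.1% as lower. In HSD against HFD, 2 of the 44 were called, CG3902 with a log2FC of -1.24 (limma adjusted p = 0.0024) and Acox57D-d with 0.69 (SE 0.07, limma adjusted p = 0.0011), beside 4.35% of all genes.

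Acox57D-d, an acyl-CoA oxidase gene of the peroxisomal group, held 12.8, 11.7 and 11.4 scaled RPKM on ND, 18.9, 17.2 and 16.7 on HSD, and 10.9, 10.4 and 10.8 on HFD. Its HSD libraries were above all the others, and HSD against ND stayed under the fold threshold with a log2FC of 0.54 (limma adjusted p = 0.0042). Its neighbour and paralogue Acox57D-p had a log2FC of -0.20 there (95% interval -0.48 to 0.09), and how reads were split between such copies is not given in the sources used here. The calls of CG3902 and Acox57D-d held in 9 of 9 fits with a library left out. The median log2FC of the 44 genes was -0.03, 0.02 and -0.04, beside 0.0, 0.02 and -0.01 over all genes. By level on ND, the leading genes of the groups were the scavenger receptor gene crq for uptake at 181 scaled RPKM, CG6178 for activation at 118, the acyl-CoA binding protein gene Acbp2 at 1949, the carnitine carrier gene colt at 89.8, Etfb of the electron transfer flavoprotein at 255 and the peroxisomal Mfe2 at 138. In the activation group 8 of 12 genes were not tested for their low level. Among them CG5568 held 2.83 scaled RPKM in HFD library C alone and at most 0.376 in the other libraries. CG18586 likewise held 1.21 in HFD library C and at most 0.208 in the others. Both were unlike hll, which was high in all 3 HFD libraries.

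**Figure D4:**
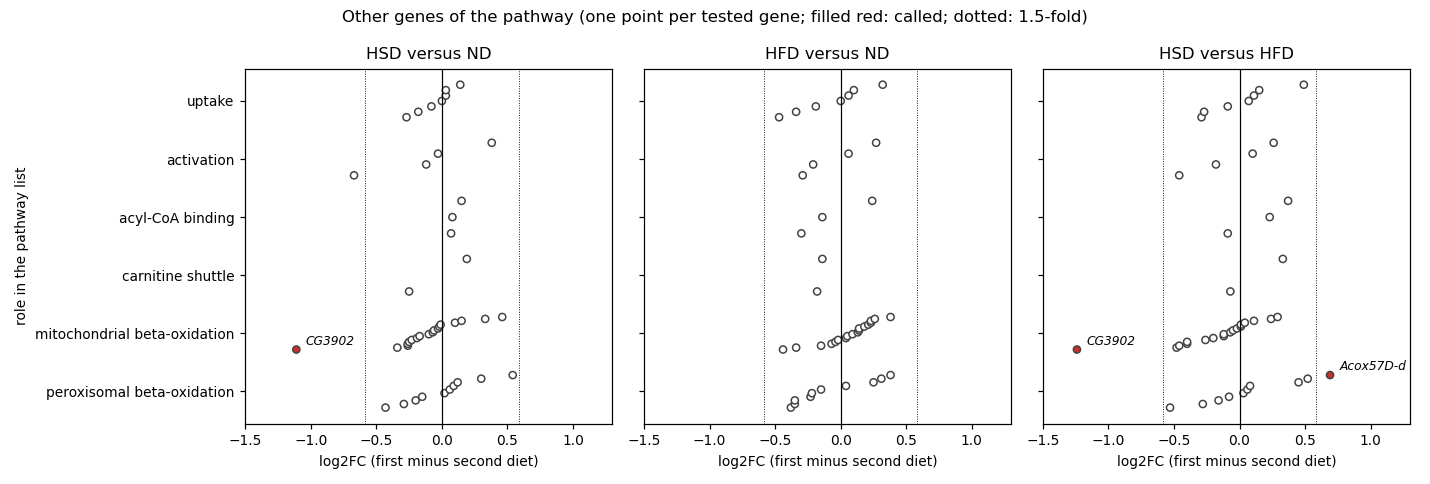
log2FC on the log2(scaled RPKM + 0.5) scale (horizontal axes) of the 44 tested genes of the pathway list by role (vertical axis) in the 3 comparisons, filled red where called and with dotted lines at a fold of 1.5. CG3902 at -1.11 and -1.24 and Acox57D-d at 0.69 are the called genes, and the other points of HFD against ND lie between -0.47 and 0.38.

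Across the 9 libraries, the genes whose log2 level was most like that of hll were CycG, CG30020 and CG7841, with Pearson r of 0.993, 0.987 and 0.978. Their own changes were small beside those of hll, with means of 115.3, 109 and 132 scaled RPKM on ND, HSD and HFD for CycG. Those most like Snmp1 were Obp57c, Jhbp13 and CG2444, with r of 0.985, 0.982 and 0.974. Obp57c, an odorant-binding protein gene, held means of 124, 111 and 68.1 scaled RPKM on ND, HSD and HFD. These correlations are a description over 9 libraries that share 3 diets, with no test.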

How the data were processed

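Hearts of females on 3 diets were sequenced, 3 libraries each. The authors trimmed reads with Sickle, aligned them to dm3, counted them per gene with featureCounts 1.6.1 of Subread 1.6.1 (versions from the submitters' processing notes, which also name FastQC 0.11.7, DESeq2 1.20.0, edgeR 3.22.5 and R 3.5.1), and deposited RPKM per gene and library with no rescaling between libraries. The unit was recorded as other because 28.4% of the deposited cells use a decimal comma, which was read as a point. Of the 13915 rows above 0, 95.1% gave whole reads at BDGP6 exon lengths within 0.02 reads, including all 10 genes. Positions are BDGP6, not the build of the alignment. In 9 stretches labels are shifted against values and were realigned; 0 of the 10 genes lie there.

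RPKM were divided by median-of-ratios factors between 0.93971 and 1.0855, and log2(value + 0.5) was used. Genes averaging 0.5 RPKM or more, 8365 in all, were fitted over all 9 libraries with limma 3.58.1 in R 4.3.3, with a trended prior, no covariate and 6 residual degrees of freedom, and the call required adjusted p < 0.05 (Benjamini-Hochberg) with a fold of 1.5 (absolute log2FC 0.585). Tables and figures used Python 3.11.15, numpy 2.4.6, pandas 2.3.3 and matplotlib 3.10.9. The fit was first run on simulated reads drawn with the same dispersion for every gene, as a check of the code, and no call rests on that run. By the paper, the 3 samples of a diet were independent and taken on different days, and the diets were set up together by date. The sources do not tie the letters A, B and C to these days.

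The genes and lists were chosen with earlier results of these data known. All 10 genes are described, with every pathway gene called in a comparison, the highest of each role, and the 3 genes most like hll and Snmp1. CG5568, CG18586 and Acox57D-p were named after their values were seen. Alternatives were the deposited RPKM, quantile normalization, added values of 0.1 and 1, no filter or a mean of 2 RPKM, no trend, only the 6 libraries compared, a replicate block, limma-voom on rebuilt reads, no fold threshold, labels as listed and each library left out.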

Additional observations from a re-analysis of the deposited data

How the results depend on the processing

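The calls of hll and Snmp1 held, in each comparison that made them, under all 20 alternatives. Labels as listed could not change these fits, because 0 of the 10 genes lie in shifted stretches. A fit without a library of the diet not compared keeps all 6 libraries compared, so it tests little. bgm in HSD against HFD was called with the deposited RPKM, quantile normalization and the replicate block, and without HSD library A or HFD library C. Leaving out a library gave 1 to 2 of the 10 genes called in HSD against ND, 2 in HFD against ND and 2 to 3 in HSD against HFD. It gave 1 to 3, 0 and 2 to 4 of the pathway list, and 107 to 297, 45 to 167 and 237 to 437 of all genes, the lowest without ND library C or HSD library B, without ND library C, and without HSD library B. The pathway count of 3 came without ND library B and that of 4 without HFD library C. With no fold threshold the pathway list had 3, 1 and 5 calls and all genes 559, 247 and 788. With no filter the pathway list had 2 calls in HSD against ND, and all genes 81 in HFD against ND, over more genes tested. The deposited RPKM moved the median log2FC of all genes in HFD against ND from 0.017 to 0.119 and the share of higher calls from 24.4% to 47.5%, and in HSD against HFD that share went from 40.1% to 29.3%.

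Signs turned only for values near 0 that were not called, and the cause was not tested. With the deposited RPKM, CPT2 gave 0.01, 0.06 and -0.05 in the 3 comparisons, yip2 0.11 in HFD against ND and scu -0.04 in HSD against HFD. With quantile normalization, CPT2 gave 0.00 in HFD against ND and -0.01 in HSD against HFD, and yip2 0.07 in HFD against ND. With a library left out, HSD against ND ranged from -0.12 to 0.07 for CPT2, -0.08 to 0.09 for Mcad and -0.01 to 0.13 for scu. HFD against ND ranged from -0.14 to 0.30 for bgm, -0.06 to 0.12 for Acsl, -0.14 to 0.05 for CPT2, -0.05 to 0.10 for scu and -0.12 to 0.09 for yip2, and HSD against HFD from -0.06 to 0.09 for CPT2 and -0.05 to 0.10 for scu.

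The diets share library letters, which the sources do not tie to the collection days. Correlations of same-letter deviations ran from -0.250 to 0.267, so the letters were not taken as pairs, and pairing by day could not be assessed. With the replicate block, 1, 2 and 3 of the 10 genes, 1, 0 and 2 of the pathway list and 282, 161 and 376 of all genes were called. hll on HSD rests on 15 to 18 reads per library, which limits the precision of its fold.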
